A study of Mus musculus with 16 samples.

Results

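RNA from the whole wall of the ileum was compared between 6 mice labelled ieIRKO-STAM-INS and 4 Control-STAM-nonINS mice, which are 10 of the 16 libraries of the series. Libraries entered by their genotype and treatment labels, and all genes were analysed, of which 15267 of 41740 had enough counts to test. STAM mice model diabetes with fatty liver disease: all were male mice given a low dose of streptozotocin on day 2 after birth, which injures insulin-producing cells, and fed a high-fat diet from week 4. They were taken at 20 weeks. Those labelled ieIRKO-STAM-INS carried Vilin-Cre(+) and InsR-flox, and were injected with degludec, a long-acting insulin, 2 times daily from week 6 on, at up to 12 U/kg. The Control-STAM-nonINS mice carried InsR-flox with Vilin-Cre(-) and received no insulin, with normal saline given in its place according to the study's methods. Genotype label and insulin both differed, so their parts cannot be told apart in this comparison. Levels of the remaining 6 libraries, from Vilin-Cre(-) mice given insulin (Control-STAM-INS), are given as context.

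The villin promoter drives Cre in the intestinal epithelium, where it is meant to remove the floxed insulin receptor, while smooth muscle, nerves, vessels and most immune cells of the wall keep theirs. Insulin signals through its receptor to limit the burning of fatty acids and the making of glucose and ketone bodies, and to favour protein synthesis. In the ileum the epithelium also absorbs bile acids, secretes fluid, detoxifies compounds from the diet and, through the Paneth cells at the crypt base, releases antimicrobial peptides.

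The insulin receptor gene Insr (GRCm38 chromosome 8, 3122061 to 3279617, minus strand) was read first. Levels are CPM, counts scaled by library size after TMM. Values of 4 libraries are listed in the order of replicates 1 to 4. Insr was at 112, 104, 88.3 and 116 CPM in Control-STAM-nonINS and at 57.5 to 90.4 CPM (median 60.5) in the labelled ieIRKO-STAM-INS libraries. The 2 groups overlapped, since replicate 4 of the labelled knockout, at 90.4 CPM, lay above replicate 3 of Control-STAM-nonINS. Insr was lower in the labelled ieIRKO-STAM-INS libraries (log2 difference -0.65, SE 0.14, edgeR adjusted p = 0.00582, and p = 0.0143 in an exact permutation test of log2 CPM, two-sided, over 210 arrangements). Control-STAM-INS libraries, which are not labelled as knockout, had a mean of 62.7 CPM, and the labelled ieIRKO-STAM-INS libraries were not lower than these (0.10 on the log2 scale, edgeR adjusted p = 0.805). Without replicates 2 and 3 labelled ieIRKO-STAM-INS and replicate 1 of Control-STAM-nonINS, called the 3 set-aside libraries (described next), the difference was -0.54 (adjusted p = 0.0916) in edgeR and no longer passed. In whole wall, Insr of epithelial and other cells is counted together and cannot be told apart, and groups are called by their labels. The study itself reports ileal Insr mRNA, by qPCR, as strongly reduced in ieIRKO-STAM mice against floxed mice without Cre. The 2 measures were not compared here.

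Of the 15267 genes tested, 2036 had an adjusted p under 0.05 (13.3%), 877 higher (5.74%) and 1159 lower (7.59%) in the labelled ieIRKO-STAM-INS libraries. Each count below of list members called stands beside these 2 shares, and a count near them says nothing particular about its list. The groups did not overlap for 580 genes on the higher side (3.8%) and 727 on the lower side (4.76%), and the median log2 difference over all genes tested was 0.01. The number called was 1038 when only the 2 groups were fitted, 1093 without Control-STAM-nonINS replicate 1, 1270 without replicates 2 and 3 labelled ieIRKO-STAM-INS, and 597 without these 3 libraries together, a setting chosen after seeing the data. With only the 2 groups fitted and these 3 left out, 31 were called. B cell genes were high in replicates 2 and 3 of the labelled ieIRKO-STAM-INS libraries, immediate early genes in replicate 1 of Control-STAM-nonINS, and red cell genes in its replicates 1 and 4. The first principal component of the 10 libraries, with 30.8% of the variance, placed all 4 Control-STAM-nonINS libraries on 1 side of all 6 others. On the second, Control-STAM-nonINS replicate 4 lay at 47.8 and the other 9 libraries between -34.6 and 15.7, and without replicate 4 alone 1898 genes were called, of which 1458 were among the 2036. Control-STAM-INS differed from Control-STAM-nonINS in 1602 genes (10.5%) and from the labelled ieIRKO-STAM-INS libraries in 34 (0.223%). These comparisons share libraries with the present one, and the difference described here is the sum of the other two on the log2 scale. Where single libraries were left out, replicates are called nonINS and ieIRKO for short, and several replicates named in a row were left out 1 at a time unless given as together.

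The ileal identity of the samples was checked on marker genes. Fabp6, the ileal bile acid binding protein, was at 5199, 6998, 7844 and 6309.5 CPM in Control-STAM-nonINS and at 3265 to 5829 CPM (median 4171) in the labelled ieIRKO-STAM-INS libraries, a high level in every library, and it was lower in the latter (log2 difference -0.59, SE 0.18, edgeR adjusted p = 0.0338). Fabp6 did not pass without nonINS replicates 2 and 3 or ieIRKO replicates 2, 4, 5 and 6 (adjusted p up to 0.118). Markers of the pancreas were near 0: the 12 acinar genes summed to at most 9.49 CPM, and 8 of them had no count in any of the 10 libraries. Of 17 smooth muscle genes tested, edgeR called 0 (at an unadjusted p under 0.05, 1 higher and 1 lower, and by DESeq2 0 and 0). They had a median log2 difference of 0.04 and summed to 5193 to 5906 CPM in Control-STAM-nonINS and 4895 to 6585 CPM in the labelled ieIRKO-STAM-INS libraries. In whole tissue, fewer cells of a type and less RNA per cell cannot be told apart.

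**Figure D1:**
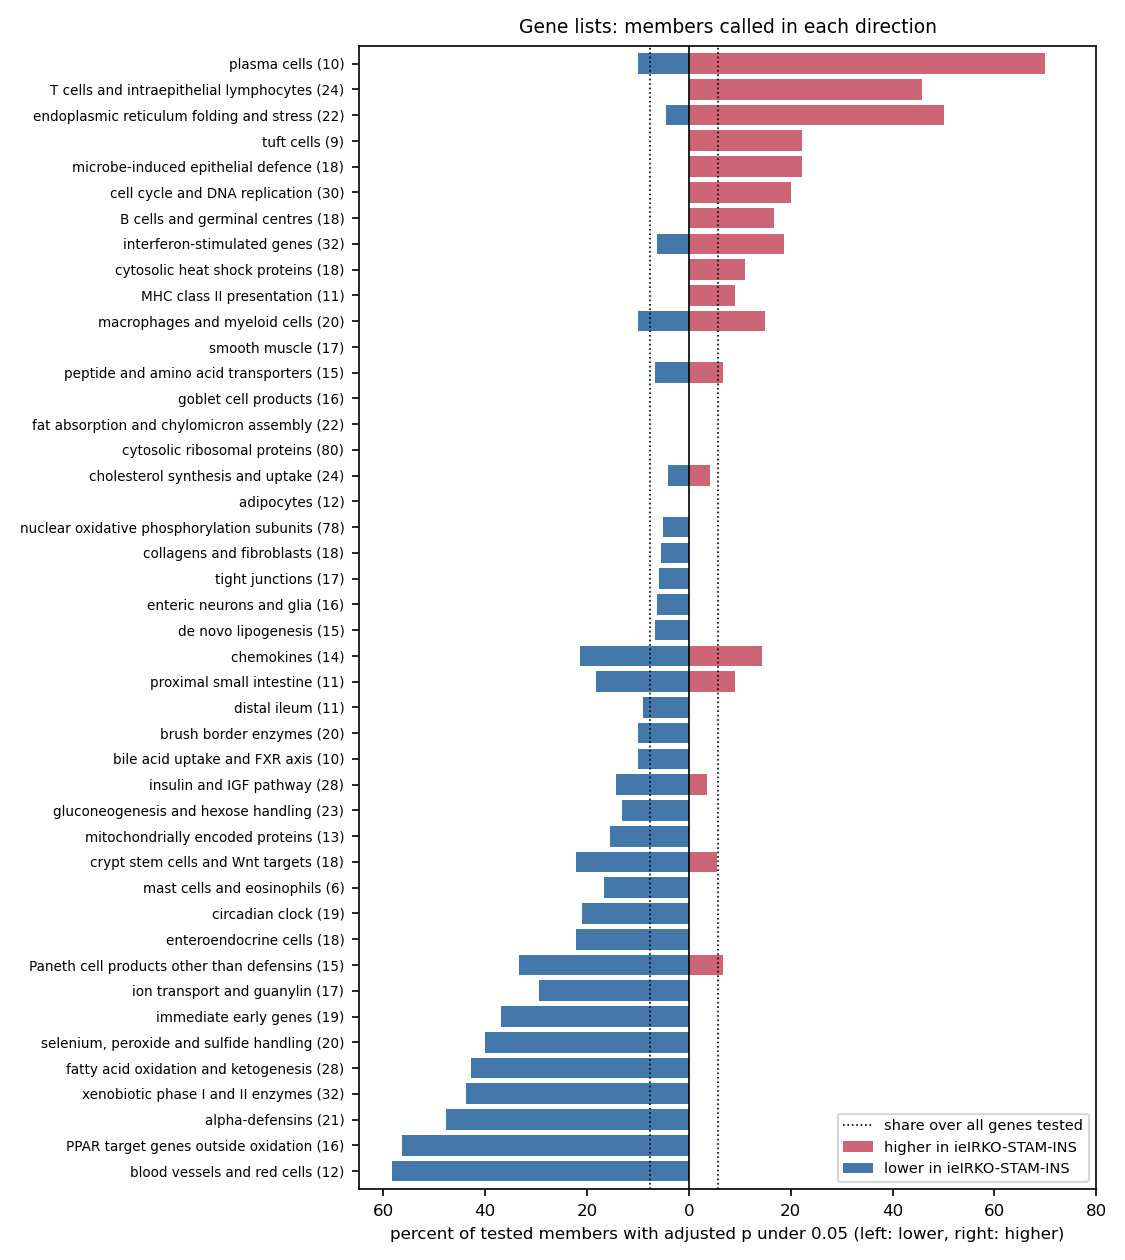
Share of the tested members of each gene list with 5 or more tested members that had an edgeR adjusted p under 0.05, higher (right, red) or lower (left, blue) in the 6 libraries labelled ieIRKO-STAM-INS than in the 4 Control-STAM-nonINS libraries, with the number tested in parentheses and the share over all genes as dotted lines (5.74% and 7.59%). Lists with the largest shares on the lower side hold vessel and red cell, PPAR target, alpha-defensin, xenobiotic and fatty acid oxidation genes, and those on the higher side plasma cell, T cell and endoplasmic reticulum folding genes.

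The genes of fatty acid burning and ketone body synthesis formed the first group on the lower side. Of 28 tested members, 12 were lower and 0 higher (0 at an unadjusted p under 0.05, 0 by DESeq2), with edgeR's adjusted p under 0.05 as the call (median log2 difference -0.52), against 7.59% lower among all genes. Acaa1b, a peroxisomal thiolase, was at 33.2, 34.7, 60.4 and 115 CPM in Control-STAM-nonINS and at 1.78 to 12.4 CPM (median 7.53) in the labelled ieIRKO-STAM-INS libraries. Every labelled knockout library lay below every Control-STAM-nonINS library, of which replicate 4 was the highest (log2 difference -3.10, SE 0.57, edgeR adjusted p = 0.00360). Its mean in Control-STAM-INS was 6.63 CPM. Of the acyl-CoA thioesterases, which free fatty acids from coenzyme A, Acot1 was at 23.8, 16.9, 17.8 and 21.4 CPM in Control-STAM-nonINS and at 2.82 to 11.5 CPM (median 7.49) in the labelled ieIRKO-STAM-INS libraries. Acot2 was at 16.4, 14.0, 20.4 and 17.9 CPM against 3.41 to 10.5 CPM (median 7.05), and neither gene overlapped between the groups. Acot1 and Acot2 fell by 1.48 and 1.29 on the log2 scale (edgeR adjusted p = 0.00879 and 0.00292). The promoters of this list and the PPAR targets were searched on both strands for the repeat that PPAR factors bind, AGGTCA 2 times with 1 base between, held by 0 of the 21 members found, 0 of 15 PPAR target genes and 13 of 32851 RefSeq windows of 300 bases (0.0396%). That says only that these letters are not in these windows. The gate enzyme of the mitochondrial pathway, Cpt1a, which admits long-chain fatty acids to mitochondria, did not pass, at 262, 231, 214 and 222 CPM against 91.7 to 225 CPM (median 162) (log2 difference -0.55, SE 0.22, edgeR adjusted p = 0.106). Acaa1b, Acot1 and Acot2 passed in all 10 fits that left out 1 compared library. For oxidation genes, the edgeR count of 12 lower became 7 without the 3 set-aside libraries.

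PPAR target genes outside oxidation had 9 of 16 tested members lower, 0 higher (0 at an unadjusted p under 0.05, 0 by DESeq2) and a median log2 difference of -0.94. PPAR factors are nuclear receptors that fatty acids activate, and many of their targets rise in fasting. Pdk4, a kinase that shuts glucose carbon out of the citric acid cycle, was at 130.2, 99.1, 110.3 and 84.4 CPM in Control-STAM-nonINS and at 6.54 to 42.6 CPM (median 17.9) in the labelled ieIRKO-STAM-INS libraries. No values overlapped, and the labelled knockout libraries fell into low values in replicates 2, 5 and 6 and higher ones in replicates 1, 3 and 4 (log2 difference -2.27, SE 0.59, edgeR adjusted p = 0.0230). Fabp1, the liver-type fatty acid binding protein, was at 38.2, 78.8, 115 and 109 CPM in Control-STAM-nonINS and at 5.66 to 36.6 CPM (median 18.1) in the labelled ieIRKO-STAM-INS libraries (log2 difference -2.26, SE 0.56, edgeR adjusted p = 0.0181), with the lowest Control-STAM-nonINS value, in replicate 1, just above the highest of the other group. Cyp4b1, a fatty acid hydroxylase, differed by -1.82 (adjusted p = 0.00369) and Angptl4, an inhibitor of lipoprotein lipase, by -1.79 (adjusted p = 0.0306), whereas the lipid droplet coat protein Plin2 did not pass at -0.46 (adjusted p = 0.124), all by edgeR. Cyp4b1 passed whichever library was left out. Pdk4 did not pass without nonINS replicate 1 (adjusted p up to 0.0633), and Fabp1 did not pass without nonINS replicate 3 (adjusted p up to 0.0505). Angptl4 did not pass without nonINS replicates 1, 2 and 3 (adjusted p up to 0.0865). Cyp4b1 did not pass without the 3 set-aside libraries (adjusted p = 0.0503). Among PPAR targets, the edgeR count of 9 lower became 5 without nonINS replicate 1 and 3 without the 3 set-aside libraries.

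**Figure D2:**
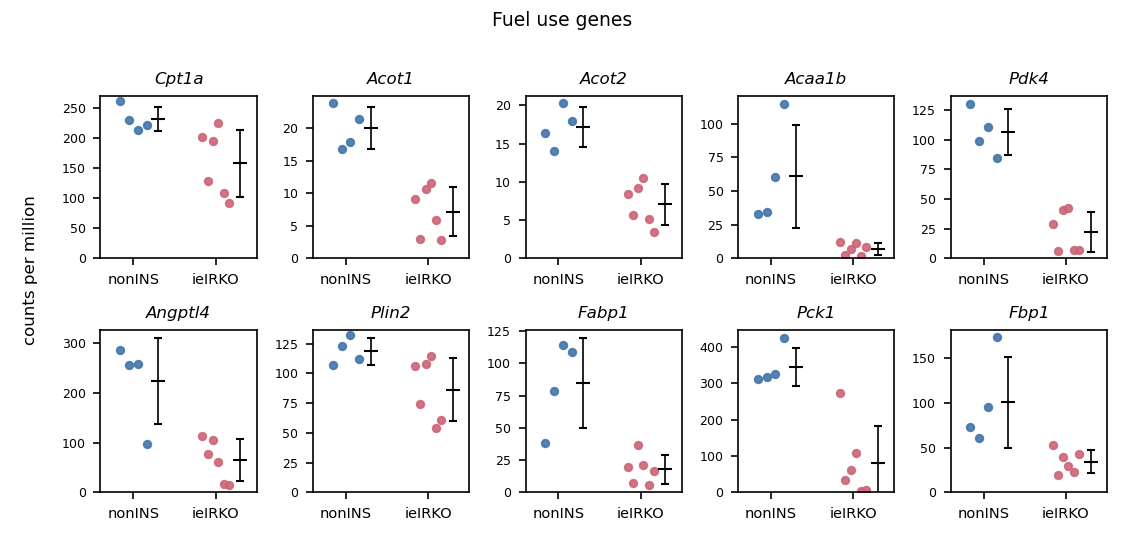
Level in CPM of 10 genes of fuel use in each of the 4 Control-STAM-nonINS (nonINS, blue) and 6 labelled ieIRKO-STAM-INS (ieIRKO, red) libraries, with bars at the mean ± SD, cut off at 0, and linear axes from 0. Acaa1b, Acot1, Acot2, Pdk4, Fabp1, Pck1 and Fbp1 do not overlap between the groups, while Cpt1a, Angptl4 and Plin2 do.

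Of 23 tested genes of gluconeogenesis and hexose handling, 3 were lower (Fbp1, Khk and Hk1) and 0 higher (0 at an unadjusted p under 0.05, 0 by DESeq2) (median log2 difference -0.32). Among all genes 7.59% were called lower. Fbp1, a fructose bisphosphatase of gluconeogenesis, was at 73.0, 60.4, 95.7 and 174 CPM in Control-STAM-nonINS and at 19.1 to 52.8 CPM (median 34.5) in the labelled ieIRKO-STAM-INS libraries (log2 difference -1.55, SE 0.45, edgeR adjusted p = 0.0381). Khk, the first enzyme of fructose use, differed by -0.89 (adjusted p = 0.0107) and the hexokinase Hk1 by -0.61 (adjusted p = 0.0133) in edgeR. Pck1, the gate enzyme of gluconeogenesis, was at 312, 318, 326 and 424 CPM in Control-STAM-nonINS and ranged from 4.98 to 274 CPM (median 48.0) in the labelled ieIRKO-STAM-INS libraries, where replicate 1 was at 274 CPM and replicates 5 and 6 at 4.98 and 5.46 CPM. The groups did not overlap and the labelled knockout libraries were spread widely, and Pck1 did not pass (log2 difference -2.08, SE 0.87, edgeR adjusted p = 0.125). The glucose transporter Slc2a2 was also wide (log2 difference -1.98, SE 0.73, edgeR adjusted p = 0.0856), and the catalytic subunit G6pc and the fructose transporter Slc2a5 had differences of -0.15 (adjusted p = 0.905) and 0.38 (adjusted p = 0.623). Khk passed whichever library was left out. Fbp1 did not pass without nonINS replicates 1, 3 and 4 or ieIRKO replicates 2, 3, 4 and 5 (adjusted p up to 0.120), and Hk1 did not pass without nonINS replicate 1 (adjusted p up to 0.0743). Khk did not pass without the 3 set-aside libraries (adjusted p = 0.0538). Over this list of 23, the edgeR count of 3 lower became 6 by DESeq2, 9 without ieIRKO replicate 1, 1 without nonINS replicate 1 and 0 without the 3 set-aside libraries (4 at an unadjusted p under 0.05).

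Within the insulin and IGF pathway, 4 of 28 tested members were lower and 1 higher, against 7.59% lower and 5.74% higher among all genes. The groups did not overlap for 1 member on the lower and 1 on the higher side. Beside Insr, Igf1r, the receptor for insulin-like growth factors, was at 49.9, 36.9, 33.6 and 49.5 CPM in Control-STAM-nonINS and at 22.5 to 35.3 CPM (median 28.8) in the labelled ieIRKO-STAM-INS libraries, with 1 library of the latter above the lowest of the former (log2 difference -0.55, SE 0.13, edgeR adjusted p = 0.00964). The growth factor Igf2 differed by -0.96 (adjusted p = 0.00211), Ddit4, an inhibitor of mTORC1 signalling, by -0.98 (adjusted p = 0.0476), and the binding protein Igfbp5 by 0.30 (adjusted p = 0.0259), all by edgeR. Igf1r and Igf2 passed whichever library was left out. Ddit4 did not pass without nonINS replicates 1, 3 and 4 or ieIRKO replicates 1, 3, 4, 5 and 6 (adjusted p up to 0.204), and Igfbp5 did not pass without nonINS replicates 1 and 2 (adjusted p up to 0.0756). Igf1r did not pass without the 3 set-aside libraries (adjusted p = 0.124). In the insulin pathway, the edgeR count of 4 lower became 1 without the 3 set-aside libraries. Lipid synthesis and absorption showed few calls. Of 15 lipogenesis genes the 1 called was Mlxipl, the carbohydrate-responsive factor ChREBP, which fell by 0.89 on the log2 scale (edgeR adjusted p = 0.00295), and the other members ranged up to 0.98. Among 24 cholesterol genes 1 was higher, Mvk at 0.58 (adjusted p = 0.0355), and 1 lower, and of 22 genes of fat absorption and chylomicron assembly edgeR called 0 (at an unadjusted p under 0.05, 0 higher and 2 lower, and by DESeq2 0 and 1, median -0.12, range -1.36 to 0.23). Of the fat absorption genes, edgeR called 3 without ieIRKO replicate 1 and 1 without nonINS replicate 4 as lower. Mvk did not pass without nonINS replicates 1, 2 and 3 or ieIRKO replicates 2, 5 and 6 (adjusted p up to 0.0881).

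Enzymes that modify foreign compounds were lower in 14 of 32 tested cases, with 0 higher (1 at an unadjusted p under 0.05, 1 by DESeq2) and a median log2 difference of -0.83. Gstm3, a glutathione transferase, was at 15.9, 11.4, 21.6 and 21.6 CPM in Control-STAM-nonINS and at 1.69 to 5.06 CPM (median 3.35) in the labelled ieIRKO-STAM-INS libraries, without overlap (log2 difference -2.33, SE 0.30, edgeR adjusted p = 2.03e-04). Adh1, an alcohol dehydrogenase that also oxidizes retinol, was at 70.6, 38.4, 51.3 and 91.7 CPM against 18.3 to 29.6 CPM (median 21.3) (log2 difference -1.50, SE 0.18, edgeR adjusted p = 9.53e-05). Cyp27a1, a sterol hydroxylase, differed by -1.34 (adjusted p = 3.82e-04) in edgeR. All 6 labelled knockout libraries lay below all 4 others for each of these. Summed over all 34 listed genes the groups overlapped, at 4678 to 7381 CPM in Control-STAM-nonINS and 2402 to 6737 CPM in the labelled ieIRKO-STAM-INS libraries. Replicate 1 was the highest of the latter. The cytochrome P450 gene Cyp2c66, at low levels of 1.47, 5.72, 5.54 and 1.40 CPM against 0.105 to 0.477 CPM (median 0.248), had the largest difference of the list, -3.66 (adjusted p = 0.00147), and Cyp3a11, a main drug-metabolizing cytochrome, did not pass at -1.61 (adjusted p = 0.102). Gstm3, Adh1, Cyp27a1 and Cyp2c66 passed whichever library was left out. Of these foreign-compound enzymes, the edgeR count of 14 lower became 9 without nonINS replicate 3 and 8 without the 3 set-aside libraries.

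Sulfide and peroxide handling followed, with 8 of 20 tested members lower and 0 higher (1 at an unadjusted p under 0.05, 0 by DESeq2) (median -0.23). In this list, the edgeR count of 8 lower became 5 without ieIRKO replicates 2, 3 and 5, 4 without nonINS replicate 3 or without ieIRKO replicates 2 and 3 together or with only the 2 groups fitted and 3 without the 3 set-aside libraries. Tst, a mitochondrial sulfurtransferase that detoxifies sulfide and cyanide, was at 55.8, 32.5, 59.0 and 55.0 CPM in Control-STAM-nonINS and at 12.2 to 17.9 CPM (median 15.4) in the labelled ieIRKO-STAM-INS libraries (log2 difference -1.72, SE 0.15, edgeR adjusted p = 3.51e-06), and replicate 2 of Control-STAM-nonINS, its lowest, was still above every value of the other group. Ethe1, the sulfide pathway dioxygenase, was at 64.4, 48.8, 64.0 and 53.3 CPM against 27.6 to 33.4 CPM (median 31.9) (log2 difference -0.89, SE 0.12, edgeR adjusted p = 3.42e-04). The trans-sulfuration enzyme Cbs and the extracellular glutathione peroxidase Gpx3 differed by -1.78 (adjusted p = 0.00333) and -0.69 (adjusted p = 0.00179) in edgeR. Tst, Ethe1, Cbs and Gpx3 passed whichever library was left out. Cbs did not pass without the 3 set-aside libraries (adjusted p = 0.0505). Among the metallothioneins, which bind zinc and copper, Mt2 was at 244, 385, 412 and 117 CPM in Control-STAM-nonINS and at 36.9 to 97.8 CPM (median 47.4) in the labelled ieIRKO-STAM-INS libraries (log2 difference -2.36, SE 0.55, edgeR adjusted p = 0.0134). Mt2 passed whichever library was left out. Mt2 did not pass without ieIRKO replicates 2 and 3 together (adjusted p = 0.0588). Mt2 did not pass without the 3 set-aside libraries (adjusted p = 0.105). Mt1 did not pass at 0.42 (adjusted p = 0.514), and Mt4 was at 0, 0.314, 0 and 0.0437 CPM against 4.82 to 30.5 CPM (median 9.49), with 0.0350 CPM in Control-STAM-INS. The gene model Gm45774, chosen after its values were seen, was at 2.08, 2.59, 4.03 and 3.54 CPM against 77.5 to 105 CPM (median 92.6), with 0.580 CPM in Control-STAM-INS (edgeR adjusted p = 7.31e-11). It overlaps Mt2 on the opposite strand, and the values of the pair moved in opposite directions. Use of strand in the counting is not given in the sources used here.

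In the list of ion transport and guanylin genes, 5 of 17 tested members were lower and 0 higher (0 at an unadjusted p under 0.05, 0 by DESeq2). There, the edgeR count of 5 lower became 3 without the 3 set-aside libraries. Slc12a2, the chloride loader of secretory crypt cells, was at 371, 247, 267 and 294 CPM in Control-STAM-nonINS and at 141 to 205 CPM (median 168) in the labelled ieIRKO-STAM-INS libraries (log2 difference -0.80, SE 0.12, edgeR adjusted p = 5.04e-04). Scnn1a, a subunit of the epithelial sodium channel, was at 23.2, 17.6, 23.7 and 21.8 CPM against 9.33 to 11.9 CPM (median 10.4) without overlap (log2 difference -1.05, SE 0.10, edgeR adjusted p = 9.18e-06). The potassium channel Kcnq1 differed by -0.70 (adjusted p = 0.00162) and the hormone guanylin, Guca2a, by -0.69 (adjusted p = 0.0192). The chloride channel Cftr, named after its values were seen, differed by -0.67 (adjusted p = 0.00472), and uroguanylin, Guca2b, did not pass at -0.75 (adjusted p = 0.0692). Slc12a2, Scnn1a, Kcnq1 and Cftr passed whichever library was left out. Guca2a did not pass without nonINS replicate 4 (adjusted p up to 0.0662). Cftr did not pass without the 3 set-aside libraries (adjusted p = 0.0711). Among 20 brush border enzymes 2 were lower, Treh (trehalase) and Mgam (maltase-glucoamylase), at -1.25 (adjusted p = 0.0231) and -0.72 (adjusted p = 0.0420), and among 15 transporters of peptides and amino acids, Slc7a15 was lower at -1.03 (adjusted p = 0.0272) and Slc36a1 higher at 0.39 (adjusted p = 0.00960), all by edgeR. The lower counts of both lists were near the 7.59% of all genes, and the higher count of the transporters near 5.74%. Slc36a1 passed whichever library was left out. Treh did not pass without nonINS replicate 3 (adjusted p up to 0.0875), and Mgam did not pass without nonINS replicates 1, 2, 3 and 4 or ieIRKO replicates 2, 3, 4, 5 and 6 (adjusted p up to 0.0948). Slc7a15 did not pass without nonINS replicates 1 and 3 or ieIRKO replicate 3 (adjusted p up to 0.0772). For brush border enzymes, the edgeR count of 2 lower became 1 without nonINS replicates 1, 2 and 4 or ieIRKO replicates 2, 3, 4, 5 and 6 and 0 without nonINS replicate 3 or without ieIRKO replicates 2 and 3 together or with only the 2 groups fitted or without the 3 set-aside libraries (2 to 4 at an unadjusted p under 0.05).

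On the higher side, the list of protein folding and stress genes of the endoplasmic reticulum had 11 of 22 tested members higher, against 5.74% of all genes, and 1 lower (median 0.43). Plasma cells are rich in such proteins, and 7 of 10 tested plasma cell genes were also higher in these libraries and 1 lower (median 1.06 on the log2 scale, all 12 listed summing to 1284 to 2229 CPM in Control-STAM-nonINS and 1755 to 3628 CPM in the labelled ieIRKO-STAM-INS libraries). The part of plasma cells in the folding gene result was not tested. The folding genes are the best known targets of the unfolded protein response, in which the factors ATF6 and XBP1 bind ER stress elements beside the start site. The promoters of 3 members that rose, and of the 1 that fell, are shown because they carry such an element. Promoter windows were taken from RefSeq (32851 windows of 300 bases on GRCm38.p6, from 250 before to 50 after a start) and 21 of the 23 list members were found. The ER stress element, searched on both strands as CCAAT and CCACG with 9 bases between them, was present in 7 of the 21, Calr, Creld2, Dnajc3, Hsp90b1, Hspa5, Pdia6 and Syvn1, and in 39 of all windows (0.119%). The related ERSE-II, searched on both strands as ATTGG and CCACG with 1 base between them, was present in 2 of the 21, Dnajb11 and Herpud1, and in 12 of all windows (0.0365%). List members were counted by gene and the whole set by window, so the 2 shares are in unlike units. A match of letters is a description and not a shown binding site. The 250 bases before the start follow 5′ to 3′ on the gene's strand, with the element in capitals.

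Hspa5 promoter, chr2:34771840-34772089, plus strand: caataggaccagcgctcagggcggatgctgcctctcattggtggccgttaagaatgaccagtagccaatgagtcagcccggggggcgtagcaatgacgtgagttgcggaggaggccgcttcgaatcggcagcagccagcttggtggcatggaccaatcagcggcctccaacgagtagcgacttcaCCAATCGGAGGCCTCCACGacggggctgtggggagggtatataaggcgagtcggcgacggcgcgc
Creld2 promoter, chr15:88819396-88819645, plus strand: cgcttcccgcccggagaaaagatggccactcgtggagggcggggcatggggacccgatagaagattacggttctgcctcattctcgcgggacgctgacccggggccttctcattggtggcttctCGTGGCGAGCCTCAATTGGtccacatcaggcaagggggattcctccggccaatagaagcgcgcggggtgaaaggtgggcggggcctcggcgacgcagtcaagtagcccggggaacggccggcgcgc
Syvn1 promoter, chr19:6046326-6046575, plus strand: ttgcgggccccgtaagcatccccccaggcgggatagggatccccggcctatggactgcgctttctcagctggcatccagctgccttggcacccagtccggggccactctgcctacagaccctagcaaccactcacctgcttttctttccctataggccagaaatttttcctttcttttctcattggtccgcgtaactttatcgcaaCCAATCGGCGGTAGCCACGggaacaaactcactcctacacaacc
Herpud1 promoter, chr8:94386179-94386428, plus strand: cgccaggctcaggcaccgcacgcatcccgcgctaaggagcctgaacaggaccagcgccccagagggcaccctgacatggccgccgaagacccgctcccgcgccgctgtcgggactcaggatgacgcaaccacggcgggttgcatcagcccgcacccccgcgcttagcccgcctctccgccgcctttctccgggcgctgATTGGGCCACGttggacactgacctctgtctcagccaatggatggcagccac

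The element began 65 bases before the start in Hspa5, 126 in Creld2 (reversed), 44 in Syvn1 and 52 in Herpud1. Syvn1 and the other members with an element were named for it and not for their values, and Herpud1 was chosen after its values were seen. Hspa5, the main chaperone of the endoplasmic reticulum (BiP), was at 378, 419, 504 and 362 CPM in Control-STAM-nonINS and at 429 to 1144 CPM (median 670.3) in the labelled ieIRKO-STAM-INS libraries, with replicate 4 of the latter inside the range of the former (log2 difference 0.79, SE 0.19, edgeR adjusted p = 0.0123). Creld2, a secreted folding factor, was at 30.1, 39.8, 42.5 and 29.3 CPM against 42.1 to 93.9 CPM (median 59.1) (log2 difference 0.85, SE 0.21, edgeR adjusted p = 0.0135). Syvn1, the ubiquitin ligase of misfolded proteins, differed by 0.65 (adjusted p = 0.00241). Replicate 6 labelled ieIRKO-STAM-INS was highest and replicate 4 lowest of its group for both Hspa5 and Creld2. Sdf2l1, a partner of BiP, was at 19.8, 29.7, 26.3 and 22.4 CPM against 37.8 to 65.3 CPM (median 48.0) without overlap (log2 difference 1.01, SE 0.18, edgeR adjusted p = 0.00205). The BiP exchange factor Hyou1 was at 92.8, 98.1, 102 and 87.7 CPM against 102 to 241 CPM (median 167) (log2 difference 0.82, SE 0.17, edgeR adjusted p = 0.00382), and Manf differed by 0.80 (adjusted p = 0.00709). Other members with the element differed by 0.54 (adjusted p = 0.00922) for Hsp90b1, 0.43 (adjusted p = 0.0228) for Calr, 0.47 (adjusted p = 0.0317) for Pdia6 and 0.31 (adjusted p = 0.0565) for Dnajc3, the last of which did not pass. Of the 2 members with ERSE-II, Dnajb11 was higher at 0.53 (edgeR adjusted p = 0.0112). Herpud1, a part of the degradation complex, moved the other way at 271, 168, 177 and 181 CPM against 72.0 to 171 CPM (median 114) (log2 difference -0.79, SE 0.23, edgeR adjusted p = 0.0302), with replicate 1 of Control-STAM-nonINS the highest. Atf4, the factor of the amino acid branch of the stress response, did not pass at -0.28 (adjusted p = 0.149). Hspa5, Syvn1, Sdf2l1, Hyou1, Manf and Hsp90b1 passed whichever library was left out. Creld2 did not pass without nonINS replicate 1 (adjusted p up to 0.0551), and Calr did not pass without nonINS replicates 1 and 4 (adjusted p up to 0.0617). Pdia6 did not pass without nonINS replicates 1 and 4 or ieIRKO replicates 3, 5 and 6 (adjusted p up to 0.0853), and Herpud1 did not pass without nonINS replicate 1 or ieIRKO replicates 4, 5 and 6 (adjusted p up to 0.126). Hspa5 did not pass with only the 2 groups fitted (adjusted p = 0.0562). Hspa5, Syvn1 and Hsp90b1 did not pass without the 3 set-aside libraries (adjusted p = 0.0853, 0.0526 and 0.0788). Over the folding list, the edgeR count of 11 higher became 4 without the 3 set-aside libraries. Of the cytosolic heat shock genes, 2 of 18 were higher, Hsph1 at 1.22 (adjusted p = 0.0496) and Chordc1 at 0.62 (adjusted p = 0.0431) in edgeR. Among all genes 5.74% were called higher. Hspa1b, a stress-induced chaperone, was at 139 and 129.7 CPM in replicates 2 and 6 of the labelled ieIRKO-STAM-INS libraries and at most 31.2 CPM in the other 8 libraries of the 2 groups (log2 difference 1.15, SE 0.63, edgeR adjusted p = 0.243). Hsph1 did not pass without nonINS replicates 1, 2, 3 and 4 or ieIRKO replicates 2, 3 and 6 (adjusted p up to 0.145), and Chordc1 did not pass without nonINS replicates 1, 3 and 4 or ieIRKO replicates 2 and 6 (adjusted p up to 0.141). For heat shock genes, the edgeR count of 2 higher became 1 without nonINS replicate 2 or ieIRKO replicate 3 and 0 without nonINS replicates 1 and 4 or ieIRKO replicates 2 and 6 or without ieIRKO replicates 2 and 3 together or with only the 2 groups fitted or without the 3 set-aside libraries (2 to 5 at an unadjusted p under 0.05).

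**Figure D3:**
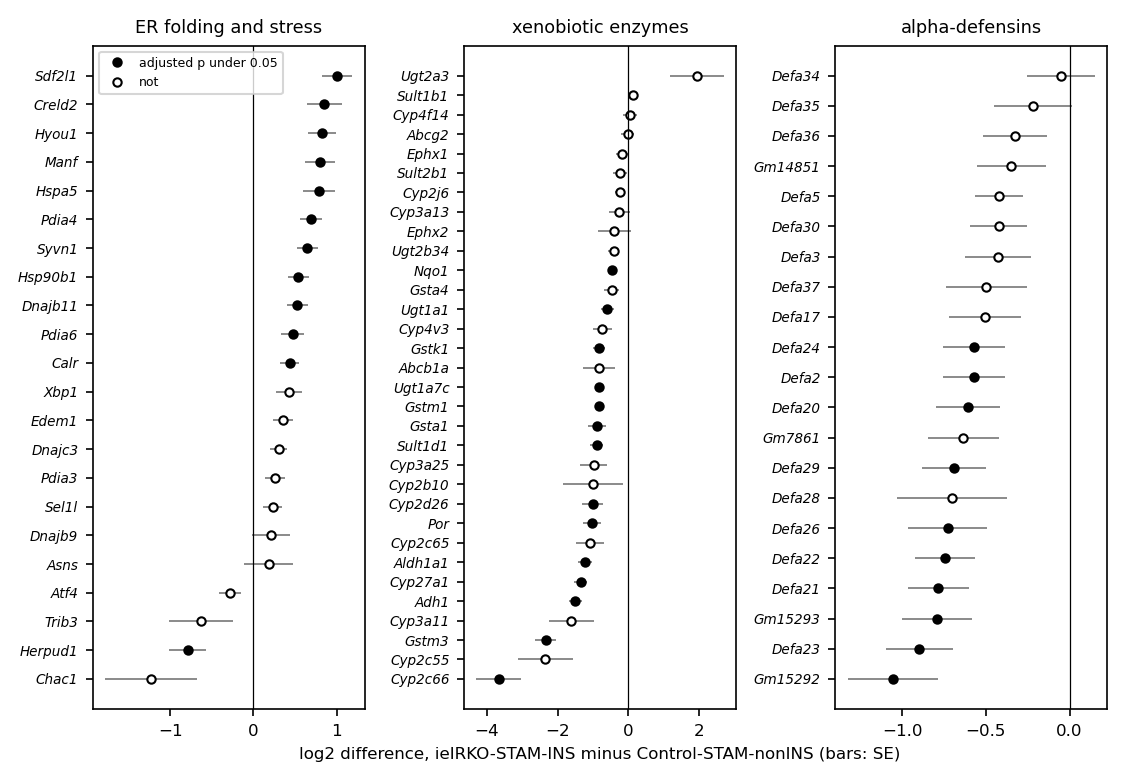
Log2 difference, labelled ieIRKO-STAM-INS minus Control-STAM-nonINS, with its standard error for every tested member of the lists of endoplasmic reticulum folding and stress (left), xenobiotic enzymes (middle) and alpha-defensins (right). Filled points have an edgeR adjusted p under 0.05, and the left panel runs up to 1.01 for Sdf2l1 while the middle panel runs down to -3.66 for Cyp2c66.

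Immune cell genes were the second large group on the higher side. Of 24 tested genes of T cells and intraepithelial lymphocytes, 11 were higher and 0 lower (0 at an unadjusted p under 0.05, 0 by DESeq2), with a median log2 difference of 1.43. Cd3g, a chain of the T cell receptor complex, was at 0.804, 2.59, 2.40 and 2.41 CPM in Control-STAM-nonINS and at 5.01 to 16.5 CPM (median 8.80) in the labelled ieIRKO-STAM-INS libraries (log2 difference 2.20, SE 0.34, edgeR adjusted p = 8.17e-04). Every Control-STAM-nonINS value lay below every other value, and all these levels are low. Cd3d differed by 1.93 (adjusted p = 0.00325), Cd3e by 1.81 (adjusted p = 0.00980), the T cell kinase Lck by 1.89 (adjusted p = 0.0202) and Cd8a, the marker of cytotoxic and most intraepithelial T cells, by 1.51 (adjusted p = 0.00132), in edgeR. Cd4, the marker of helper T cells, did not pass at 0.19 (adjusted p = 0.644). The 24 genes summed to 50.9 to 98.0 CPM in Control-STAM-nonINS and 86.8 to 261 CPM in the labelled ieIRKO-STAM-INS libraries, with replicates 2 and 3 the highest. Those are also the libraries rich in B cell genes. Without both, Cd3g and Cd8a differed by 1.81 (adjusted p = 0.00228) and 1.42 (adjusted p = 0.00670). The number called higher without both was 9. With T cell genes, the edgeR count of 11 higher became 19 by DESeq2, 7 without nonINS replicate 3 or with only the 2 groups fitted and 4 without the 3 set-aside libraries. Cd3g, Cd3d, Cd3e and Cd8a passed whichever library was left out. Lck did not pass without nonINS replicates 1 and 3 (adjusted p up to 0.0666). Cd3e did not pass without the 3 set-aside libraries (adjusted p = 0.0918).

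B cell and germinal centre genes had a high median of 2.22, but 3 of 18 were called, and the groups overlapped for each of these 3. Ms4a1 (CD20), a surface protein of B cells, was at 3.21, 1.88, 2.01 and 2.54 CPM in Control-STAM-nonINS and at 80.3 and 37.4 CPM in replicates 2 and 3 of the labelled ieIRKO-STAM-INS libraries, whose other 4 libraries lay between 0.716 and 4.88 CPM (log2 difference 3.13, SE 1.15, edgeR adjusted p = 0.0856). Cd79b, a chain of the B cell receptor, and the complement receptor Cr2 did not pass either, at 2.04 (adjusted p = 0.0618) and 3.04 (adjusted p = 0.125), and the 3 calls were Fcer2a at 4.05 (adjusted p = 0.0411), Fcrla at 2.44 (adjusted p = 0.0282) and Cd79a at 1.86 (adjusted p = 0.0487). Summed over 20 genes, the level was 954 and 553 CPM in those 2 libraries and 60.3 to 111 CPM in the other 8. Without the 2 libraries, Fcer2a, Fcrla and Cd79a differed by 1.03 (adjusted p = 0.225), 1.06 (adjusted p = 0.0799) and 0.66 (adjusted p = 0.124). Fcer2a did not pass without nonINS replicates 1, 2, 3 and 4 or ieIRKO replicates 2 and 3 (adjusted p up to 0.106), and Fcrla did not pass without nonINS replicates 1, 3 and 4 or ieIRKO replicate 3 (adjusted p up to 0.0814). Cd79a did not pass without nonINS replicates 1, 2, 3 and 4 or ieIRKO replicates 2, 3 and 5 (adjusted p up to 0.135). For B cell genes, the edgeR count of 3 higher became 12 by DESeq2, 7 without ieIRKO replicate 4, 6 without ieIRKO replicate 1, 5 without ieIRKO replicate 6, 1 without nonINS replicate 2 or ieIRKO replicate 2 and 0 without nonINS replicates 1, 3 and 4 or ieIRKO replicate 3 or without ieIRKO replicates 2 and 3 together or with only the 2 groups fitted or without the 3 set-aside libraries (1 to 13 at an unadjusted p under 0.05).

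Plasma cells, which secrete antibody into the mucosa, were not highest in these 2 libraries. Of 10 tested genes 7 were higher and 1 lower (median 1.06). Jchain, which joins secreted IgA, was at 693, 870.3, 1082 and 1727 CPM in Control-STAM-nonINS and at 1275 to 3027 CPM (median 1919) in the labelled ieIRKO-STAM-INS libraries, with replicate 5 the highest and replicate 2 the lowest of the latter (log2 difference 0.87, SE 0.25, edgeR adjusted p = 0.0302). Mzb1, an antibody folding partner, was at 5.69, 10.3, 10.4 and 15 CPM against 18.8 to 36.3 CPM (median 23.7) without overlap (log2 difference 1.29, SE 0.22, edgeR adjusted p = 0.00154). Slamf7, Tnfrsf17 (BCMA) and Derl3 differed by 1.79 (adjusted p = 5.07e-04), 1.57 (adjusted p = 0.0109) and 1.25 (adjusted p = 0.0124). All 5 of these genes were highest in replicate 5. The 1 lower member, Sdc1, which epithelial cells also make, was at 358, 284, 374 and 255 CPM against 169 to 214 CPM (median 183) (log2 difference -0.77, SE 0.11, edgeR adjusted p = 3.42e-04), and is named after its values were seen. Mzb1, Slamf7, Tnfrsf17, Derl3 and Sdc1 passed whichever library was left out. Jchain did not pass without nonINS replicates 1, 2 and 3 or ieIRKO replicate 5 (adjusted p up to 0.105). Without replicates 2 and 3 of the labelled ieIRKO-STAM-INS libraries, 7 members were called higher.

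**Figure D4:**
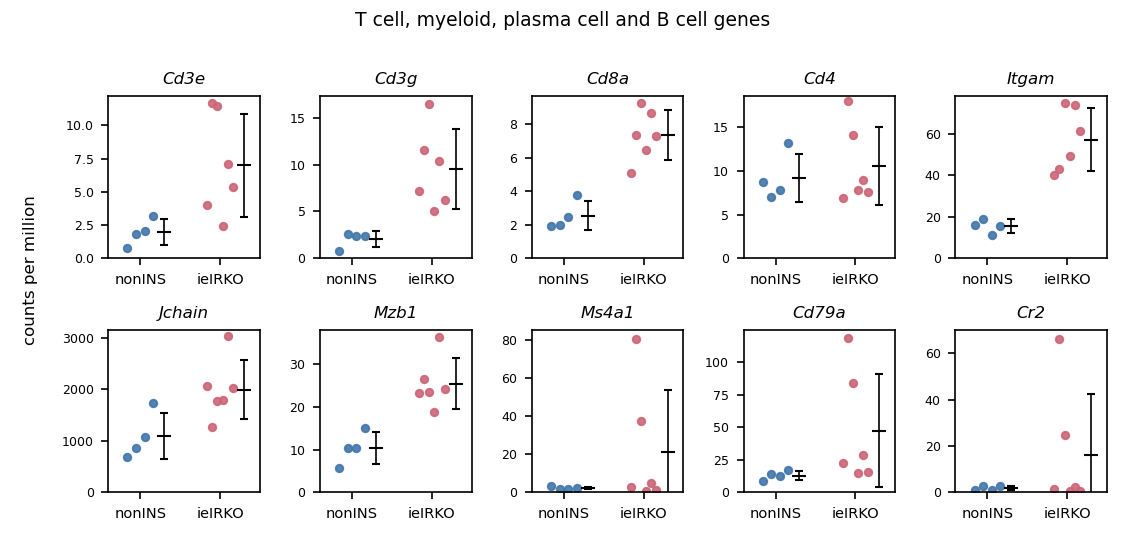
Level in CPM of 10 T cell, myeloid, plasma cell and B cell genes in each of the 4 Control-STAM-nonINS (nonINS, blue) and 6 labelled ieIRKO-STAM-INS (ieIRKO, red) libraries, with bars at the mean ± SD, cut off at 0, and linear axes from 0. For Ms4a1, Cd79a and Cr2 the 2 high points are replicates 2 and 3, whereas Itgam, Mzb1, Cd3g and Cd8a are higher in all 6 libraries.

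Myeloid genes were called on both sides, with 3 of 20 higher and 2 lower, against 5.74% and 7.59% of all genes. The count on the lower side was near that share. Itgam (CD11b) was at 15.9, 19.1, 11.3 and 15.7 CPM in Control-STAM-nonINS and at 40.1 to 75.0 CPM (median 55.4) in the labelled ieIRKO-STAM-INS libraries, more than 2 times the highest Control-STAM-nonINS library in every case (log2 difference 1.89, SE 0.21, edgeR adjusted p = 6.82e-05), and the chemokine receptor Ccr2 was higher at 1.33 (adjusted p = 0.00600). Cd163, a scavenger receptor of resident macrophages, and the monocyte marker Ly6c2 were lower at -1.37 (adjusted p = 9.67e-04) and -1.20 (adjusted p = 0.00209) in edgeR. Chemokines were also called on both sides: Ccl22 at 1.89 (adjusted p = 0.0180) and Cxcl9 at 1.11 (adjusted p = 0.0346) were higher, and Ccl11, which recruits eosinophils, at -1.24 (adjusted p = 0.00834), Ccl8 at -1.24 (adjusted p = 0.0259) and Cxcl16 at -0.46 (adjusted p = 0.0400) were lower, of 14 tested. Ccl11 passed whichever library was left out. Ccl22 did not pass without nonINS replicates 1 and 4 (adjusted p up to 0.0690), and Cxcl9 did not pass without nonINS replicates 1, 2, 3 and 4 or ieIRKO replicates 3, 5 and 6 (adjusted p up to 0.0856). Ccl8 did not pass without nonINS replicate 4 (adjusted p up to 0.102), and Cxcl16 did not pass without nonINS replicates 1 and 3 or ieIRKO replicates 2, 3, 4 and 5 (adjusted p up to 0.155). Of these chemokines, the edgeR count of 3 lower became 1 with only the 2 groups fitted or without the 3 set-aside libraries. On their higher side, the edgeR count of 2 higher became 1 without nonINS replicates 2 and 3 or ieIRKO replicates 3, 5 and 6 and 0 without nonINS replicates 1 and 4 or without ieIRKO replicates 2 and 3 together or with only the 2 groups fitted or without the 3 set-aside libraries (3 to 5 at an unadjusted p under 0.05). Interferon-stimulated genes had 6 of 32 higher and 2 lower, with a median of -0.09, against 5.74% higher and 7.59% lower among all genes. Their lower calls were a smaller share than that of all genes. Irf1, a factor induced by interferon gamma, was at 93.1, 120.2, 106 and 86.1 CPM against 139 to 200.5 CPM (median 159) without overlap (log2 difference 0.73, SE 0.15, edgeR adjusted p = 0.00422). Gbp2, Zbp1 and Ifit1bl1 were higher at 0.98 (adjusted p = 0.00241), 0.99 (adjusted p = 0.0452) and 1.71 (adjusted p = 0.00790). Irf7, which drives the type I response, was lower at -0.72 (adjusted p = 0.0248). Isg15 and Ifit1 did not pass at -0.04 (adjusted p = 0.943) and -0.51 (adjusted p = 0.268). Of 11 MHC class II genes, Ciita, the master regulator of the family, was the 1 called (log2 difference 1.18, SE 0.32, edgeR adjusted p = 0.0257), where 6 were higher at an unadjusted p under 0.05 and 4 by DESeq2. It was highest in replicates 2 and 3, while the invariant chain Cd74 had 0.28 (adjusted p = 0.388). Without those 2 libraries, Ciita differed by 0.55 (adjusted p = 0.0286). Itgam, Ccr2, Cd163, Ly6c2, Irf1 and Gbp2 passed whichever library was left out. Zbp1 did not pass without nonINS replicates 1, 2, 3 and 4 or ieIRKO replicates 3, 5 and 6 (adjusted p up to 0.125), and Irf7 did not pass without nonINS replicates 1, 2 and 3 or ieIRKO replicate 3 (adjusted p up to 0.0743). Ciita did not pass without nonINS replicates 1, 2 and 3 or ieIRKO replicate 3 (adjusted p up to 0.0817). Ccr2 and Irf1 did not pass without the 3 set-aside libraries (adjusted p = 0.0710 and 0.0577). Of the interferon-stimulated genes, the edgeR count of 6 higher became 2 without the 3 set-aside libraries. Of those interferon-stimulated genes, the edgeR count of 2 lower became 4 by DESeq2, 6 without ieIRKO replicate 6, 4 without nonINS replicate 4 or ieIRKO replicate 1 and 1 without nonINS replicates 1, 2 and 3 or ieIRKO replicate 3 or without ieIRKO replicates 2 and 3 together or with only the 2 groups fitted or without the 3 set-aside libraries. For myeloid genes, the edgeR count of 3 higher became 5 by DESeq2, 8 without nonINS replicate 4 and 1 without the 3 set-aside libraries.

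Epithelial genes that respond to microbes were higher in 4 of 18 tested cases, with 0 lower (1 at an unadjusted p under 0.05, 0 by DESeq2) (median 0.61). Duox2, an oxidase that makes hydrogen peroxide at the surface, was at 101, 203, 80.3 and 33.4 CPM in Control-STAM-nonINS and at 186 to 852 CPM (median 275) in the labelled ieIRKO-STAM-INS libraries, where replicate 6 was highest (log2 difference 1.82, SE 0.52, edgeR adjusted p = 0.0333). Fut2, which adds fucose to surface glycans, was at 48.6 and 90.0 CPM in replicates 5 and 6 of the labelled ieIRKO-STAM-INS libraries and at most 14.8 CPM in the other 8 libraries of the 2 groups (log2 difference 2.93, SE 0.88, edgeR adjusted p = 0.0419), with a mean of 17.2 CPM in Control-STAM-INS. The gasdermins Gsdmc2 and Gsdmc3 differed by 2.07 (adjusted p = 0.0363) and 2.60 (adjusted p = 0.0132). The abundant lectins of this list did not pass: Reg3b and Reg3g had 0.61 (adjusted p = 0.219) and 0.61 (adjusted p = 0.337), and Reg3a -0.61 (adjusted p = 0.187), nor did Nos2 at -0.28 (adjusted p = 0.589) or Pigr, the transporter of IgA, at 0.22 (adjusted p = 0.226). Gsdmc3 passed whichever library was left out. Duox2 did not pass without nonINS replicates 1, 3 and 4 or ieIRKO replicates 5 and 6 (adjusted p up to 0.0890), and Fut2 did not pass without nonINS replicates 1, 2, 3 and 4 or ieIRKO replicates 5 and 6 (adjusted p up to 0.0981). Gsdmc2 did not pass without nonINS replicates 1 and 3 or ieIRKO replicates 2, 3, 5 and 6 (adjusted p up to 0.100). Gsdmc3 did not pass with only the 2 groups fitted (adjusted p = 0.0607). Gsdmc3 did not pass without the 3 set-aside libraries (adjusted p = 0.0883). With only the 2 groups fitted, their adjusted p ran from 0.0607 to 0.124. Among microbe-response genes, the edgeR count of 4 higher became 2 without nonINS replicate 4 or without ieIRKO replicates 2 and 3 together, 1 without nonINS replicates 1 and 3 or ieIRKO replicates 5 and 6 and 0 with only the 2 groups fitted or without the 3 set-aside libraries (6 to 10 at an unadjusted p under 0.05).

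The Paneth cell lists had calls mostly on the lower side. Lyz1, the lysozyme of Paneth cells (GRCm38 chromosome 10, 117287797 to 117292868), was at 2706, 3052, 2429.8 and 1937 CPM in Control-STAM-nonINS and at 362 to 721 CPM (median 546) in the labelled ieIRKO-STAM-INS libraries, a gap wider than either group's range (log2 difference -2.22, SE 0.19, edgeR adjusted p = 3.51e-06). Ang4, an antimicrobial ribonuclease, was at 115, 152, 122 and 93.5 CPM against 32.5 to 73.6 CPM (median 49.1) without overlap (log2 difference -1.22, SE 0.21, edgeR adjusted p = 0.00179). Colipase, Clps, differed by -1.15 (adjusted p = 0.00361). Of 15 tested genes of the Paneth cell list other than defensins, 5 were lower, with Nupr1 and Sox9 beside these 3, and 1 higher, Gfi1 at 1.17 (adjusted p = 0.00737). The matrilysin Mmp7 and the lectin Itln1 did not pass at 0.20 (adjusted p = 0.430) and 0.03 (adjusted p = 0.952). Alpha-defensins, the main antimicrobial peptides of these cells, were lower in 10 of 21 tested genes, with 0 higher (0 at an unadjusted p under 0.05, 0 by DESeq2) (median -0.57, range -1.06 to -0.05). Defa21 was at 1475, 1716, 1411 and 1214 CPM in Control-STAM-nonINS and at 595 to 1211 CPM (median 841) in the labelled ieIRKO-STAM-INS libraries (log2 difference -0.79, SE 0.18, edgeR adjusted p = 0.00876). Defa23 was at 669, 839, 603 and 378 CPM against 242 to 418 CPM (median 338) (log2 difference -0.90, SE 0.20, edgeR adjusted p = 0.00803). The defensin model Gm15292 had the lowest difference, -1.06 (adjusted p = 0.0155). Defa23 overlapped between the groups at replicate 4 of Control-STAM-nonINS. These genes are near-identical copies, so the counts of single members are uncertain, and the same holds for Lyz1 and its paralog. Control-STAM-INS means lay above both groups for Defa21 (1989 CPM) and Defa23 (1095 CPM) and at 2686 CPM for Lyz1. Against Control-STAM-nonINS, the median of the 21 defensins was 0.72 in Control-STAM-INS, and the labelled ieIRKO-STAM-INS libraries against Control-STAM-INS gave -1.19. The medians of the 28 oxidation genes in the same 2 comparisons were -0.48 and 0.01. Lyz1, Ang4, Clps, Gfi1, Nupr1, Defa21, Defa23 and Gm15292 passed whichever library was left out. Sox9 did not pass without nonINS replicates 1, 2 and 4 or ieIRKO replicates 3, 5 and 6 (adjusted p up to 0.110). Gm15292 did not pass without ieIRKO replicates 2 and 3 together (adjusted p = 0.0553). Clps, Nupr1 and Gm15292 did not pass without the 3 set-aside libraries (adjusted p = 0.0577, 0.0834 and 0.117). Without the 3 set-aside libraries, Defa21 and Defa23 differed by -0.69 (adjusted p = 0.0894) and -0.77 (adjusted p = 0.0949) and no longer passed. For alpha-defensins, the edgeR count of 10 lower became 6 without ieIRKO replicates 2, 3, 4 and 6 or with only the 2 groups fitted, 5 without nonINS replicates 1 and 3, 4 without nonINS replicate 2 or without ieIRKO replicates 2 and 3 together and 0 without the 3 set-aside libraries (9 at an unadjusted p under 0.05). For the other genes of the Paneth cell list, the edgeR count of 5 lower became 2 without the 3 set-aside libraries.

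Other epithelial lineages were described by their own lists, beside shares of 5.74% higher and 7.59% lower among all genes. Of 16 goblet cell products edgeR called 0 (at an unadjusted p under 0.05, 0 higher and 5 lower, and by DESeq2 0 and 2, median -0.02, range -0.41 to 0.28). Of the goblet cell products, edgeR called 4 without ieIRKO replicate 4 and 1 without nonINS replicate 2 or ieIRKO replicate 5 as lower. Hormone-producing cells had 4 of 18 genes lower: Chga, a granule protein, was at 56.1, 38.7, 35.8 and 42.2 CPM against 14.6 to 33.1 CPM (median 23.3) (log2 difference -0.88, SE 0.23, edgeR adjusted p = 0.0214). Chgb differed by -1.43 (adjusted p = 0.0174), Tph1, which makes serotonin, by -1.77 (adjusted p = 0.00279) and the convertase Pcsk1 by -0.50 (adjusted p = 0.0328). The glucagon gene Gcg, the source of GLP-1, did not pass at -0.86 (adjusted p = 0.0521). Tuft cells, the chemosensory lineage, had 2 of 9 tested genes higher, among them Trpm5 at 0.75 (adjusted p = 0.00736), and Dclk1 at 0.33 (adjusted p = 0.201) did not pass. Of 30 tested genes of the cell cycle and DNA replication, 6 were higher, among them Mcm5 at 0.79 (adjusted p = 0.00286), Mcm4 at 0.62 (adjusted p = 0.00228), Ccnd1 (cyclin D1) at 0.73 (adjusted p = 0.00604) and Ccne1 (cyclin E1) at 0.70 (adjusted p = 0.0435). Ccnd1 was at 75.7, 79.6, 76.3 and 71.5 CPM in Control-STAM-nonINS and at 87.4 to 183 CPM (median 119) in the labelled ieIRKO-STAM-INS libraries, without overlap. Markers of dividing cells did not pass: Mki67, Top2a, Cdk1 and Ccnb1 had 0.09 (adjusted p = 0.651), 0.04 (adjusted p = 0.852), 0.10 (adjusted p = 0.631) and -0.00146 (adjusted p = 0.996). Crypt and Wnt target genes were lower in 4 of 18 cases, among them Ephb3 at -0.66 (adjusted p = 0.00559) and Msi1 at -0.57 (adjusted p = 0.0313), and higher in 1, Cdca7 at 0.41 (adjusted p = 0.0181), and the stem cell markers Lgr5 and Olfm4 had -0.28 (adjusted p = 0.249) and 0.29 (adjusted p = 0.292). Tph1, Trpm5, Mcm5, Mcm4, Ccnd1 and Ephb3 passed whichever library was left out. Chga did not pass without nonINS replicate 1 (adjusted p up to 0.0868), and Chgb did not pass without nonINS replicate 1 (adjusted p up to 0.0686). Pcsk1 did not pass without nonINS replicate 1 or ieIRKO replicates 2, 3 and 5 (adjusted p up to 0.183), and Ccne1 did not pass without nonINS replicates 2, 3 and 4 or ieIRKO replicates 1, 2, 3, 5 and 6 (adjusted p up to 0.108). Msi1 did not pass without nonINS replicates 1, 3 and 4 or ieIRKO replicates 2, 5 and 6 (adjusted p up to 0.0994), and Cdca7 did not pass without nonINS replicates 1 and 4 (adjusted p up to 0.0650). Tph1, Trpm5 and Ephb3 did not pass without the 3 set-aside libraries (adjusted p = 0.0570, 0.0859 and 0.0921). Among tuft cell genes, the edgeR count of 2 higher became 4 without ieIRKO replicate 1 and 0 without the 3 set-aside libraries (3 at an unadjusted p under 0.05). In hormone-producing cells, the edgeR count of 4 lower became 2 without ieIRKO replicates 2 and 3 together, 1 without nonINS replicate 1 and 0 without the 3 set-aside libraries (5 at an unadjusted p under 0.05). In the cell cycle list, the edgeR count of 6 higher became 11 without ieIRKO replicate 6 and 3 without nonINS replicate 2 or ieIRKO replicate 3 or without ieIRKO replicates 2 and 3 together or with only the 2 groups fitted. In the crypt list, the edgeR count of 4 lower became 2 without nonINS replicates 1 and 4 or ieIRKO replicate 2 or without ieIRKO replicates 2 and 3 together or with only the 2 groups fitted and 1 without the 3 set-aside libraries.

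Genes that respond within minutes to stimulation or handling were lower in 7 of 19 tested cases (median -0.70), against 7.59% of all genes. Nr4a1, an orphan nuclear receptor, was at 105, 37.3, 36.0 and 14.3 CPM in Control-STAM-nonINS and at 3.00 to 24.5 CPM (median 4.99) in the labelled ieIRKO-STAM-INS libraries, with overlap (log2 difference -2.55, SE 0.58, edgeR adjusted p = 0.0116). Atf3, Egr1 and the phosphatase Dusp1 differed by -2.15 (adjusted p = 0.0323), -2.14 (adjusted p = 0.0496) and -1.15 (adjusted p = 0.00961). Fos and Jun did not pass at -1.59 (adjusted p = 0.0578) and -0.68 (adjusted p = 0.242). The 19 genes summed to 3064 CPM in replicate 1 of Control-STAM-nonINS, to 903 in replicate 4 and to 763 to 1325 CPM in the labelled ieIRKO-STAM-INS libraries. Of these early genes, the edgeR count of 7 lower became 4 without nonINS replicate 3 or ieIRKO replicate 3 or without ieIRKO replicates 2 and 3 together, 2 with only the 2 groups fitted or without the 3 set-aside libraries and 1 without nonINS replicate 1. Haemoglobin genes also moved with single libraries: Hbb-bs was at 235, 33.6, 46.3 and 161 CPM in Control-STAM-nonINS, high in replicates 1 and 4, and at 16.6 to 44.8 CPM (median 29.0) in the labelled ieIRKO-STAM-INS libraries (log2 difference -2.02, SE 0.48, edgeR adjusted p = 0.0144). Hbb-bt, Hba-a1 and Alas2, the first enzyme of haem synthesis in red cells, differed by -2.61 (adjusted p = 0.00612), -2.03 (adjusted p = 0.0288) and -2.50 (adjusted p = 0.0121). The part of blood in the samples in these differences was not tested. Over 12 vessel and red cell genes, the edgeR count of 7 lower became 3 without nonINS replicates 1 and 4 or with only the 2 groups fitted, 1 without ieIRKO replicates 2 and 3 together and 0 without the 3 set-aside libraries (6 at an unadjusted p under 0.05). Of 19 clock genes 4 were lower, Bhlhe40 at -1.22 (adjusted p = 9.03e-04), Per1 at -1.27 (adjusted p = 0.0315), Ciart at -1.49 (adjusted p = 0.0287) and Usp2 at -0.77 (adjusted p = 0.0192), whereas the clock outputs Dbp and Nr1d1 had -0.32 (adjusted p = 0.669) and 0.20 (adjusted p = 0.573). The hour of sampling is not given in the sources used here. Dusp1, Hbb-bt and Bhlhe40 passed whichever library was left out. Nr4a1 did not pass without nonINS replicate 1 (adjusted p up to 0.0576), and Atf3 did not pass without nonINS replicates 1 and 2 or ieIRKO replicates 1, 3 and 5 (adjusted p up to 0.153). Egr1 did not pass without nonINS replicates 1 and 3 or ieIRKO replicates 1, 2, 3, 4, 5 and 6 (adjusted p up to 0.294), and Hbb-bs did not pass without nonINS replicate 1 (adjusted p up to 0.0690). Hba-a1 did not pass without nonINS replicates 1 and 4 or ieIRKO replicates 2, 3 and 5 (adjusted p up to 0.114), and Alas2 did not pass without nonINS replicate 1 (adjusted p up to 0.0661). Per1 did not pass without nonINS replicates 1 and 3 or ieIRKO replicates 3, 5 and 6 (adjusted p up to 0.122), and Ciart did not pass without nonINS replicates 1 and 3 or ieIRKO replicates 3 and 5 (adjusted p up to 0.121). Usp2 did not pass without nonINS replicate 1 (adjusted p up to 0.0842). Dusp1 and Hbb-bt did not pass without the 3 set-aside libraries (adjusted p = 0.0654 and 0.116). Of the clock genes, the edgeR count of 4 lower became 2 without nonINS replicate 3 or ieIRKO replicates 3 and 5 and 1 without nonINS replicate 1 or with only the 2 groups fitted or without the 3 set-aside libraries.

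Structural and housekeeping lists were also counted: 0 of 80 cytosolic ribosomal proteins by edgeR (at an unadjusted p under 0.05, 0 higher and 1 lower, and by DESeq2 0 and 1, median -0.03), 4 of 78 nuclear subunits of oxidative phosphorylation, all lower (median -0.06), and 2 of 13 mitochondrially encoded proteins, both lower (median -0.24, 7 lower at an unadjusted p under 0.05 and 4 without overlap). Among all genes 5.74% were called higher, 7.59% were called lower and 4.76% were lower without overlap. The nuclear subunits thus had a smaller share of lower calls than all genes. Single members were lower among 17 tight junction genes (Cldn23, -0.80 (adjusted p = 0.0290)), 16 genes of enteric neurons and glia (Vip, -0.92 (adjusted p = 0.0154)), 18 collagen and fibroblast genes (Dcn, -0.48 (adjusted p = 0.0259)) and 6 mast cell and eosinophil genes (Il1rl1, -0.57 (adjusted p = 0.0287)), all by edgeR. Cldn23 did not pass without nonINS replicates 1, 2 and 3 or ieIRKO replicates 2, 3 and 5 (adjusted p up to 0.106), and Vip did not pass without nonINS replicate 4 (adjusted p up to 0.0555). Dcn did not pass without nonINS replicates 1, 2 and 3 (adjusted p up to 0.0972), and Il1rl1 did not pass without nonINS replicates 1 and 3 or ieIRKO replicate 2 (adjusted p up to 0.103). Genes typical of the upper small intestine were mixed, with Fabp1 and Cybrd1 lower and the iron exporter Slc40a1 higher (1.26 (adjusted p = 0.0147)) of 11 tested. Cybrd1 did not pass without nonINS replicates 1, 3 and 4 or ieIRKO replicates 3, 4 and 6 (adjusted p up to 0.112), and Slc40a1 did not pass without nonINS replicate 3 (adjusted p up to 0.0503). For mitochondrially encoded proteins, the edgeR count of 2 lower became 5 by DESeq2, 1 without nonINS replicates 1, 2 and 4 or ieIRKO replicates 2, 4 and 6 or with only the 2 groups fitted and 0 without nonINS replicate 3 or ieIRKO replicate 3 or without ieIRKO replicates 2 and 3 together or without the 3 set-aside libraries (2 to 6 at an unadjusted p under 0.05). In nuclear oxidative phosphorylation, the edgeR count of 4 lower became 2 without nonINS replicate 2 or ieIRKO replicate 5 and 1 without nonINS replicate 3 or ieIRKO replicates 2 and 3 or without ieIRKO replicates 2 and 3 together or with only the 2 groups fitted or without the 3 set-aside libraries.

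By size of change among abundant genes whose groups did not overlap, the 12 largest falls ran from -3.10 (Acaa1b) to -2.17 (Vav3) and the 12 largest rises from 2.16 (ccdc198) to 0.98 (Ccdc116). Such genes numbered 400 on the lower and 268 on the higher side. Among the falls not yet described, Adamts1, a matrix protease, was at 123, 19.8, 37.0 and 24.0 CPM in Control-STAM-nonINS, replicate 1 far above the rest, and at 4.88 to 11.1 CPM (median 7.09) in the labelled ieIRKO-STAM-INS libraries (log2 difference -2.76, SE 0.43, edgeR adjusted p = 0.00130). Gal3st2b, a sulfotransferase of mucin-type glycans, was at 133, 148, 215 and 91.9 CPM against 5.87 to 58.1 CPM (median 20.2) (log2 difference -2.52, SE 0.57, edgeR adjusted p = 0.0116). The retinol dehydrogenase Rdh7 was at 27.8, 26.1, 41.2 and 77.2 CPM against 5.09 to 14.9 CPM (median 7.81) (log2 difference -2.36, SE 0.51, edgeR adjusted p = 0.00881). The matrix protein Vwa1 differed by -2.23 (adjusted p = 0.00134) and Vav3, an activator of small GTPases, by -2.17 (adjusted p = 0.00206). ccdc198, which the files spell in lower case, was at 16.6, 20.8, 12.8 and 1.18 CPM in Control-STAM-nonINS, lowest in replicate 4, and at 39.6 to 69.8 CPM (median 57.3) in the labelled ieIRKO-STAM-INS libraries (log2 difference 2.16, SE 0.48, edgeR adjusted p = 0.00980). Wdfy4, used in antigen cross-presentation, was at 5.76, 6.19, 5.70 and 8.79 CPM against 8.99 to 55.1 CPM (median 13.2) (log2 difference 1.78, SE 0.47, edgeR adjusted p = 0.0233). Arhgap45 was at 16.3, 16.9, 15.7 and 18.2 CPM against 21.4 to 112 CPM (median 28.6) (log2 difference 1.54, SE 0.43, edgeR adjusted p = 0.0312). Both were highest in replicates 2 and 3, the libraries rich in B cell genes. Without these 2, they differed by 0.79 (adjusted p = 0.0127) and 0.63 (adjusted p = 0.0118). Lax1, an adaptor of lymphocyte signalling, differed by 1.35 (adjusted p = 4.83e-04), the adaptor Skap2 by 1.02 (adjusted p = 5.51e-05), the palmitoyltransferase Zdhhc23 by 1.08 (adjusted p = 8.75e-04) and the protease inhibitor Serpina1b by 1.10 (adjusted p = 0.0192), all by edgeR. Acaa1b, Acot1, Acot2, Gstm3, Mt2, Ifit1bl1, Serpina1b, Hspa1b, Gsdmc2, Gsdmc3 and the haemoglobins have close paralogs, so reads between copies may have been split. Adamts1, Gal3st2b, Rdh7, Vwa1, Vav3, ccdc198, Lax1, Skap2 and Zdhhc23 passed whichever library was left out. Wdfy4 did not pass without nonINS replicates 1, 2 and 3 (adjusted p up to 0.0735), and Arhgap45 did not pass without nonINS replicates 1, 2, 3 and 4 or ieIRKO replicate 3 (adjusted p up to 0.0854). Serpina1b did not pass without nonINS replicate 1 (adjusted p up to 0.0617). ccdc198 did not pass with only the 2 groups fitted (adjusted p = 0.0542). Gal3st2b and Rdh7 did not pass without ieIRKO replicates 2 and 3 together (adjusted p = 0.0651 and 0.0528). Gal3st2b, Rdh7 and ccdc198 did not pass without the 3 set-aside libraries (adjusted p = 0.116, 0.0762 and 0.0799).

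**Figure D5:**
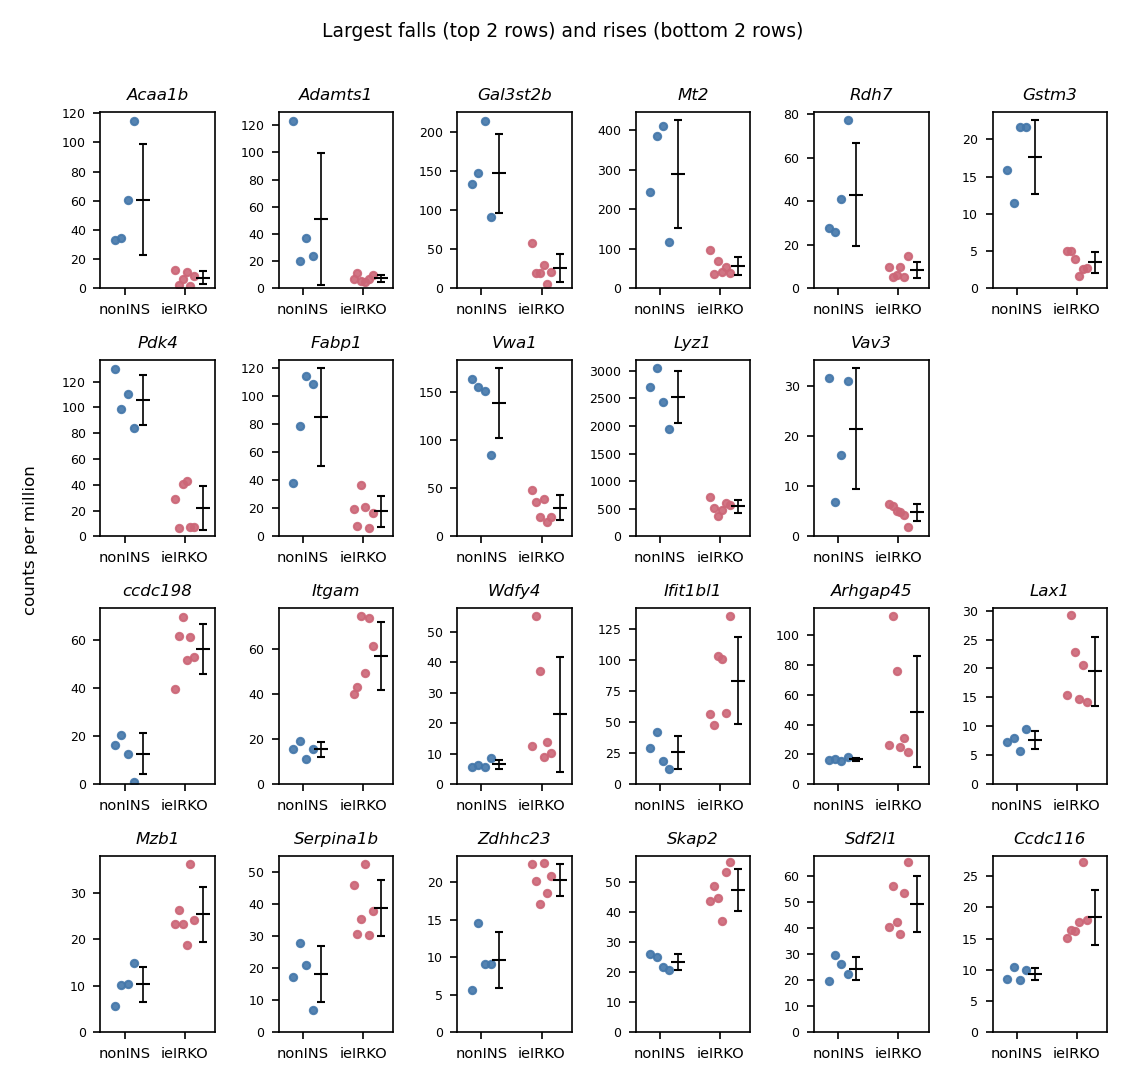
Level in CPM of 11 of the 12 largest falls (top 2 rows) and 12 largest rises (bottom 2 rows) chosen by size of change, in each of the 4 Control-STAM-nonINS (nonINS, blue) and 6 labelled ieIRKO-STAM-INS (ieIRKO, red) libraries, with bars at the mean ± SD, cut off at 0, and linear axes from 0. No gene overlaps between the groups, and Adamts1, Wdfy4 and Arhgap45 have 1 or 2 libraries far above the rest of their group.

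The level of Control-STAM-INS sets these genes beside mice that received insulin under the control genotype. In the 2 steps from Control-STAM-nonINS to Control-STAM-INS and from there to the labelled ieIRKO-STAM-INS libraries, each fitted with shared libraries, Acaa1b had log2 differences of -3.20 (adjusted p = 0.00360) and 0.11 (adjusted p = 0.958), the first a fall to 6.63 CPM and the second not passing. Pdk4 had -3.07 (adjusted p = 0.00650) and 0.80 (adjusted p = 0.626). The sulfurtransferase Tst had -1.28 (adjusted p = 8.96e-05) and -0.44 (adjusted p = 0.293) and the sodium channel Scnn1a -0.63 (adjusted p = 7.45e-04) and -0.41 (adjusted p = 0.0877). On the higher side, Itgam had 1.29 (adjusted p = 9.80e-04) and 0.59 (adjusted p = 0.289), Sdf2l1 1.10 (adjusted p = 0.00136) and -0.09 (adjusted p = 0.860) and Hyou1 0.56 (adjusted p = 0.0366) and 0.26 (adjusted p = 0.516). Mzb1 had 0.66 (adjusted p = 0.0646) and 0.63 (adjusted p = 0.290) and Cd3g 1.74 (adjusted p = 0.00398) and 0.46 (adjusted p = 0.548). Lyz1 had another order of levels, with 2686 CPM in Control-STAM-INS and differences of 0.09 (adjusted p = 0.832) and -2.31 (adjusted p = 1.25e-06), and so had Ang4 with 0.43 (adjusted p = 0.229) and -1.64 (adjusted p = 4.02e-04) and Defa23 with 0.82 (adjusted p = 0.0201) and -1.71 (adjusted p = 1.71e-04), all by edgeR. A p that misses the threshold does not show that levels were alike, and the second step compares groups of 6 and 6 libraries that differ in genotype label alone.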

How the data were processed

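Total RNA from ileal whole wall was treated with DNase, made into libraries with the directional NEBNext Ultra kit and sequenced. The 16 deposited files hold 1 library each, as whole-number read counts for 41740 gene models, which the authors made with CLC Genomics Workbench on the mouse genome GRCm38. How strand and reads with several matches were counted is not given in the sources used here.

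Genes were kept by filterByExpr of edgeR 4.0.16 (minimum count 10, minimum total 15), library sizes were scaled by TMM, and the 3 groups of the series were fitted together with the quasi-likelihood test (limma 3.58.1, R 4.3.3). Benjamini-Hochberg adjustment ran over 15267 genes, and adjusted p under 0.05 is the call. Levels are CPM after TMM. Totals ran from 13288018 to 22215382 counts per library, and p-values measure the spread between mice that the labels give as separate replicates.

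Named were Insr, the 12 largest rises and 12 largest falls among genes called, not overlapping and with a group mean over 300 counts (immunoglobulins, alpha-defensins and unnamed models left out), and, for the gene lists, the defining members and up to 4 called members with the largest change and a group mean over 50 counts. Lists with few calls are given by counts and range, and some genes that this rule names are not reported here. The comparison, the lists and the members were chosen with earlier results of these data known.

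Alternatives were DESeq2 1.42.0, upper-quartile scaling, other filters, the likelihood ratio test, the 2 groups alone, a replicate block and fits without named libraries. The fit was also run on simulated data with known changes, and its outcome is not given here. No pair of libraries within either of the 2 groups agreed within sampling noise. Same-numbered libraries of the 2 groups did not deviate together (correlations of -0.0943 to 0.0471), so numbers were not taken as pairs. Promoter windows came from RefSeq (GRCm38.p6), and those of 1 chromosome were not searched.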

Additional observations from a re-analysis of the deposited data

Results flagged for a closer look

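Each named gene was searched within both groups for a highest or lowest library that stood off from its nearest neighbour by more than Dixon's 95% limit on the log2(CPM + 1) scale. Of 348 groups tested over 174 genes, 16 had such a library, where chance flags about 1 in 20, and no explanation was tested for any of them. In Control-STAM-nonINS replicate 4, values were low for the matrix protein Vwa1 (84.09 CPM), the lipase inhibitor Angptl4 (96.47 CPM), maltase-glucoamylase Mgam (5223 CPM, with the others at 5312 to 5324 CPM) and the interferon gene Ifit1 (17.32 CPM), and high for Pck1 (423.9 CPM). Replicate 1 of that group was high for Herpud1 (271.2 CPM) and low for the lymphocyte genes Cd3g (0.8037 CPM) and Cd79b (4.956 CPM). Replicate 2 was low for the sulfurtransferase Tst (32.54 CPM) and high for Mt4 (0.3136 CPM) and Syvn1 (79.58 CPM), and replicate 3 was high for the chemokine Cxcl16 (69.74 CPM).

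Among the libraries labelled ieIRKO-STAM-INS, replicate 6 was low for Vav3 (1.88 CPM), replicate 5 high for Ccdc116 (27.22 CPM), replicate 1 low for the monocyte marker Ly6c2 (1.907 CPM) and replicate 3 low for Fos (15.89 CPM). B cell genes, high in 2 libraries of that group, were not picked out by this search, since it looks at 1 library at a time.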

How the results depend on the processing

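The count of 2036 genes called (877 higher, 1159 lower) was 1038 (366 and 672) with only the 2 groups fitted, 1270 (527 and 743) without ieIRKO-STAM-INS replicates 2 and 3, and from 1093 to 2274 when 1 library was left out (407 to 1032 higher, 686 to 1242 lower). Of the 1038, 1035 were also among the 2036, and of the 1270, 1178 were. In 2 settings chosen after seeing the data, Control-STAM-nonINS replicate 1 was left out as well: 597 genes (213 and 384) were then called in the fit of all groups and 31 (4 and 27) with only the 2 groups, which leaves 3 libraries against 4. Insr was -0.54 and -0.54 in those settings (adjusted p = 0.0916 and 0.221), passed in the others, and ran from -0.74 to -0.60 when 1 library was left out. A replicate block gave 1615 calls (633 and 982) and -0.59 for Insr, the numbers being no shown pairs. DESeq2 called 2665, upper-quartile scaling 2032 (51.4% of them higher, against 43.1%), the likelihood ratio test 2276, no filter 1670 and the strict filter 1929.

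Reversed directions all belonged to genes that had not passed. Without ieIRKO-STAM-INS replicates 2 and 3 the log2 difference was -0.23 for Cd4, -0.63 for Cr2, 0.14 for Isg15, -0.0157 for Mki67 and -0.00576 for Top2a. In the 2 added settings it was -0.26 and -0.25 for Cd4, -0.83 and -0.83 for Cr2, and 0.27 and 0.26 for Isg15. Ccnb1 was at 0.00107 by DESeq2, 0.0382 by upper quartile, 0.00236 with the strict filter and 0.0584 with the replicate block, which gave 0.0933 for G6pc. When 1 library was left out, Ccnb1 ran from -0.0394 to 0.0581, G6pc from -0.45 to 0.32, Cd4 from -0.0139 to 0.43, Isg15 from -0.33 to 0.0947, Itln1 from -0.24 to 0.37 and Top2a from -0.0055 to 0.0949. The cause of these moves was not tested.

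With 4 and 6 mice, low genes such as Cd3d or Tnfrsf17, near 1 CPM in Control-STAM-nonINS, rest on few reads. Genotype label and insulin cannot be told apart here, and counts of paralogs are uncertain.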
